A study of Apis mellifera with 6 samples.

Results

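CPR27, CPF2 and Fibroin4 are 3 of the 10013 genes measured by RNA sequencing in the midgut of the honey bee, Apis mellifera. They were picked from these same samples because all 3 were higher after tunicamycin, so their differences are given as a description, and no test of them is used as support. CPR27 and CPF2 encode cuticular proteins of different families, and Fibroin4 encodes a silk protein. The bees of both groups drank a sucrose solution with 0.5% DMSO (dimethyl sulfoxide, a solvent) for 24 hours. The treated group had 24 µM tunicamycin in it, and the control group did not. Each group had 3 samples, numbered 1, 2 and 3 for controls and 2, 3 and 4 for tunicamycin, and they were deposited in 3 tables that each hold a control and a tunicamycin sample. The labels give no strain, caste, age or number of bees per sample, and nothing in them tells whether cages or colonies were separate, so the spread between samples may be technical.

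Tunicamycin blocks the first step of N-glycosylation, and misfolded glycoproteins then load the endoplasmic reticulum. Insect cuticle is built of chitin and structural proteins, and the largest family of these, CPR, carries the Rebers and Riddiford chitin-binding consensus, while the smaller CPF family is defined by another conserved motif. Cuticle covers the body wall, the tracheae, the foregut and the hindgut; the midgut between them has none and is lined instead by the peritrophic matrix, a sheet of chitin and proteins. Honey bee silk is made of small coiled-coil fibroins, which are known from the labial glands of larvae, where they are spun into the cocoon.

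Each sample held between 22763496 and 26278751 reads over the listed genes. Control 1 stood apart from its group, with 964 genes at least 2-fold away from the mean of the other controls, against 480 and 459 for controls 2 and 3. In the tunicamycin group this count was 690 for sample 3, against 617 and 512 for samples 2 and 4. The 3 measured midgut alpha-glucosidases (AGLU2, Hbg2 and Hbg3, of 4 fixed) summed to between 1103657 and 1592447 normalized reads in controls and between 701920 and 1302930 in tunicamycin. Most of that sum was AGLU2 and Hbg2. AGLU2 was lower in tunicamycin in all 3 tables (log2 -0.46, SE 0.47; limma adjusted p = 0.673), and Hbg3 was lower in every tunicamycin sample than in any control, with normalized reads of 599 to 989 against 1168 to 1736 (log2 -0.84, SE 0.23; limma adjusted p = 0.163; DESeq2 adjusted p = 0.0267). Hbg2 was higher in tunicamycin in 2 of the 3 tables (log2 -0.30, SE 0.55, limma adjusted p = 0.838). Its ratios in the tables of controls 1, 2 and 3 were 1.30, 1.14 and 0.36. AGLU2 and Hbg3, but not Hbg2, thus had lower values in all 3 tables. The share of all genes lower in all 3 tables was not counted, so nothing is read from this. The part of the alpha-glucosidases in the differences of CPR27, CPF2 and Fibroin4 was not tested. Normalized reads, the unit of all levels given here, are reads that the authors scaled by a factor for each sample, so that samples can be compared for a gene. They are not scaled to gene length and give no order between genes.

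CPR27, a cuticular protein with the chitin-binding consensus, was measured from very few reads. Controls 1, 2 and 3 had 7.0, 8.38 and 4.86 normalized reads of it, against 21.8, 24.3 and 22.6 in tunicamycin 2, 3 and 4. Every tunicamycin sample was above every control, and the tunicamycin samples lay close together. The lowest mean over the 6 samples of any listed gene was 9.89, and the control mean of CPR27 lies below that, so it is listed only through its tunicamycin values and its ratio and rank are not free of that limit. The means were 6.74 ± 1.77 and 22.9 ± 1.28 normalized reads (SD, n = 3 each), a ratio of 3.40. On the log2(value + 1) scale, which understates the change of a gene this low, the difference was 1.65 (SE 0.39). Every SE given here is from limma, which draws the variance of a gene toward that of genes of like level. It therefore does not follow from the SDs printed beside it.

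The whole reads behind these values were 7, 9 and 5 in controls and 20, 23 and 24 in tunicamycin. Counting error alone gives 95% Poisson intervals of 4.12 to 17.1 reads for the highest control and 12.2 to 30.9 for the lowest tunicamycin sample, so single samples of the groups overlap within counting error although their values do not. The mean of CPR27 over the 6 samples was 0.606 CPM (reads scaled to library size). It was the sole gene of the 3 with a mean below 1 CPM.

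Fibroin4, a coiled-coil silk protein, had the largest difference of the 3. Its level was 40.0, 67.9 and 39.8 normalized reads for controls 1, 2 and 3, and 168, 377 and 124 for tunicamycin 2, 3 and 4. The groups did not overlap, and sample 3 was far above either of the other tunicamycin samples. The means were 49.3 ± 16.2 and 223 ± 135 normalized reads (SD, n = 3 each), a ratio of 4.53, and the log2 difference was 2.04 (SE 0.43). Without tunicamycin 3 the log2 difference was 1.58, and without control 1 it was 1.92. Fibroin4 was the single gene measured of the 6 silk gland genes looked for, so whether other silk genes moved with it is not analysed here.

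CPF2, the cuticular protein of the CPF family, had the most reads and the smallest difference. Controls 1, 2 and 3 held 927, 1088 and 1339 normalized reads, while tunicamycin 2, 3 and 4 held 1328, 1569 and 2772. The groups overlapped, since control 3 was above tunicamycin 2, and tunicamycin 4 was far above the other samples. The means were 1118 ± 208 and 1889 ± 774 normalized reads (SD, n = 3 each), a ratio of 1.69, and the log2 difference was 0.70 (SE 0.28). It was 0.57 without control 1 and 0.79 without tunicamycin 3. Without tunicamycin 4 it was 0.38, so that this library decides much of the value. In the reference gene table CPF2 overlaps a long non-coding RNA, LOC113219266, and since the strand setting of the counting is not given, reads of the pair cannot be told apart.

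**Figure D1:**
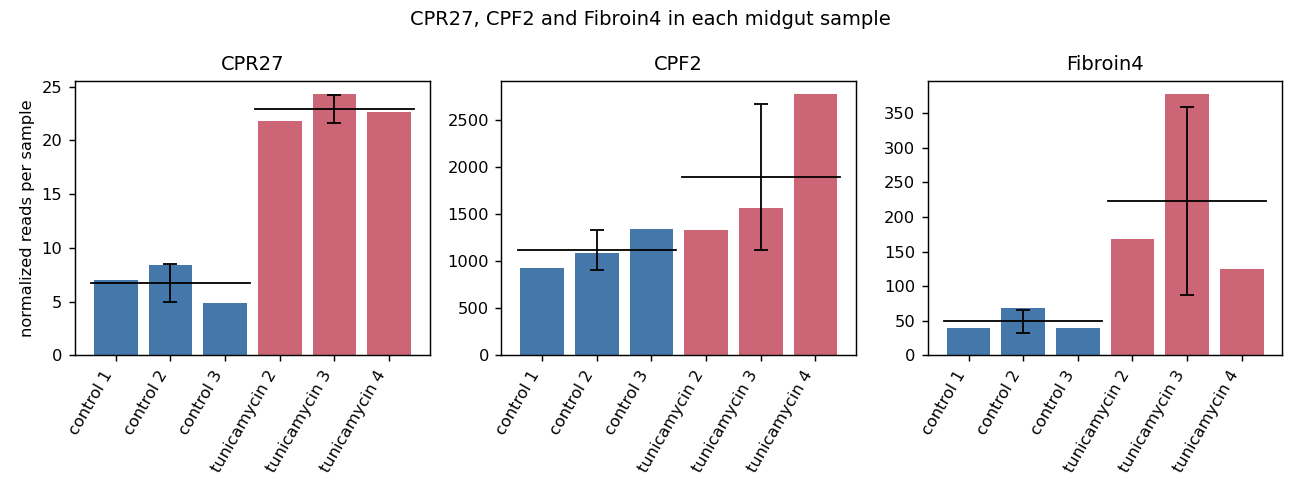
Normalized reads (y axis, from 0, with a scale of its own in each panel) of CPR27, CPF2 and Fibroin4 in each midgut sample; bars are samples, blue for control and red for tunicamycin, the black line is the group mean and the error bar its SD (n = 3). The groups are apart for CPR27 and Fibroin4, while for CPF2 control 3 (1339) lies just above tunicamycin 2 (1328).

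Within the deposited tables, the tunicamycin sample was above its control for all 3 genes. The ratios in the tables of controls 1, 2 and 3 were 3.11, 2.90 and 4.66 for CPR27. They were 4.20, 5.55 and 3.13 for Fibroin4. For CPF2 they were 1.43, 1.44 and 2.07. CPF2 thus had its largest ratio in the table of tunicamycin 4, and Fibroin4 had its smallest there. The few reads of CPR27 give no order.

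The spread within the tunicamycin group differed among the 3 genes. On the log2 scale its SD was 0.08 for CPR27, 0.56 for CPF2 and 0.82 for Fibroin4, against 0.35, 0.27 and 0.43 in controls. The 95% Poisson interval of CPR27 in tunicamycin 2, 12.2 to 30.9 reads, is wider than its range of 20 to 24 reads in tunicamycin. The small SD of CPR27 is thus not read as a trait of the gene. The highest tunicamycin sample was sample 3 for Fibroin4 and sample 4 for CPF2, while the values of CPR27 lay within counting error of each other and give no order. The midgut is a bulk sample, so more cells that make a transcript and more of the transcript per cell cannot be told apart for any of these genes.

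Of the 3 genes, 0 passed a Benjamini-Hochberg adjusted p under 0.05 in limma, where 1.13% of all genes passed, and 0 passed in edgeR, where 0.939% did. DESeq2 called 1 of them, Fibroin4, against 5.51% of genes, and gave no adjusted p for CPR27 because of its low count. Every tunicamycin value was above every control value for 2 of the 3, as for 11.0% of all genes, and the tunicamycin value was higher in all 3 tables for 3 of 3, against 18.2% of all genes. The genes were picked from these same values, so nothing is read from these counts. By log2 difference, 46 genes lay above Fibroin4, 91 above CPR27 and 691 above CPF2.

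The other cuticular protein genes gave mixed differences. In limma that of CPF1 was larger than that of CPF2, and all were smaller than those of CPR27 and Fibroin4. In edgeR and DESeq2 CPR22 was also above CPF2, at log2 1.07 and 1.09 against 0.75 and 0.76. CPR27, CPF2 and Fibroin4 were picked for higher values in these samples, so nothing is read from this order. Besides CPR27 and CPF2, 7 genes with a CPR or CPF symbol were measured. Of the 7, 0 passed in limma, edgeR or DESeq2, where 1.13%, 0.939% and 5.51% of all genes passed. At an unadjusted p under 0.05 there were 0 of 7 in limma, against 15.5% of all genes. There was 1, CPF1, in edgeR and in DESeq2, against 15.8% and 15.9% of all genes. Of the 7, 5 had a positive log2 difference in limma (6 in edgeR and DESeq2, where CPR28 changed sign), against 50.2% of all genes, and their median was 0.17 in limma, 0.42 in edgeR and 0.42 in DESeq2, against 0.00142 over all genes in limma. None of the 7 had every tunicamycin value above every control value, against 11.0% of all genes. The 7 are what was left after CPR27 and CPF2 were picked for higher values, so nothing is read from this absence. CPF1 alone was higher in all 3 tables, against 18.2% of all genes.

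CPF1, the other measured member of the CPF family and the direct neighbour of CPF2 in gene order, was at 88.0, 101 and 118 normalized reads in controls 1, 2 and 3. In tunicamycin samples 2, 3 and 4 it was at 89.4, 249 and 318. Samples 3 and 4 were above every control and sample 2 lay within the control range. The means were 103 ± 15.3 and 219 ± 117 (SD, n = 3 each), and the log2 difference of 0.91 (SE 0.45) did not pass (limma adjusted p = 0.383). It was 1.46 without tunicamycin 2 and 0.55 without tunicamycin 4. As for CPF2, control values were lowest in control 1 and highest in control 3, and tunicamycin values were lowest in sample 2 and highest in sample 4. No sequence was at hand to tell whether reads of the pair could be shared.

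The 6 other CPR genes gave mixed values. CPR12 had a control mean of 53.8 ± 27.8 and a tunicamycin mean of 72.2 ± 15.9 (log2 0.55, SE 0.44; limma adjusted p = 0.598), with control 1 at 24.0 below every other sample, and was at log2 0.062 without control 1 and 0.90 without control 2. CPR13 had means of 123 ± 8.35 in controls and 169 ± 57.5 under tunicamycin (log2 0.41, SE 0.25; limma adjusted p = 0.492), and tunicamycin 4 was the high sample at 232; the log2 difference was 0.15 without it and 0.63 without tunicamycin 3. CPR4 stood at 190 ± 7.42 and at 189.5 ± 24.6 (log2 -0.01, SE 0.15; limma adjusted p = 0.980), with a tunicamycin range of 167 to 216 around the control range of 183 to 198.

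CPR22, CPR28 and CPR6 were low and varied within the tunicamycin group. CPR22 was at 13, 23.3 and 6.80 normalized reads in controls 1, 2 and 3; tunicamycin 2, 3 and 4 held 65.4, 1.06 and 25.5, which spans the whole control range on both sides. Its lowest value was a single read, 1, in tunicamycin 3. CPR28 was at 53.4 in tunicamycin 2 and at 18.0 and 22.6 in samples 3 and 4, around a control range of 25.3 to 38.2. CPR6 was at 8.49 to 21.8 in tunicamycin and 12.0 to 15.5 in controls. None of these genes passed (limma adjusted p = 0.970 for CPR22, 0.931 for CPR28 and 0.889 for CPR6).

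**Figure D2:**
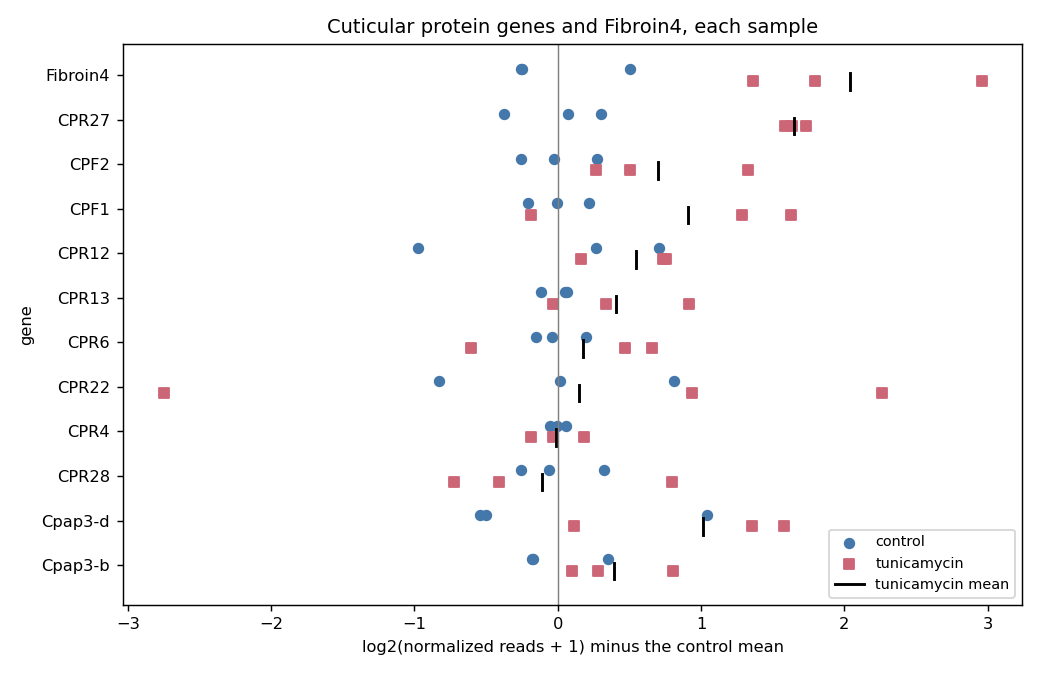
Values of each sample on the log2(normalized reads + 1) scale minus the control mean (x axis) for the measured cuticular protein genes and Fibroin4 (y axis); blue circles are controls, red squares tunicamycin samples and the black tick the tunicamycin mean. The squares of Fibroin4 and CPR27 lie to the right of all circles, while CPR22 spreads to both sides, from 1.06 to 65.4 normalized reads.

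Of 10 measured genes tied to cuticle, its tanning or the moulting hormone, 0 passed in limma and in edgeR (1.13% and 0.939% of all genes), and 1 passed in DESeq2 (5.51%). At an unadjusted p under 0.05 there was 1 of 10 in limma, the same gene, against 15.5% of all genes. This was E75, a nuclear receptor induced early by the moulting hormone ecdysone. Controls 1, 2 and 3 held 14851, 20670 and 21134 normalized reads of it, and tunicamycin 2, 3 and 4 held 44224, 29192 and 36222, with every tunicamycin sample above every control (log2 0.95, SE 0.22; limma adjusted p = 0.110; DESeq2 adjusted p = 9.59e-04). Its highest tunicamycin sample was sample 2, which was not the highest sample of CPF2 or Fibroin4. The median log2 difference of the 10 genes was 0.15.

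Other genes of the moulting hormone cascade lay closer to 0. E74, a transcription factor of the early ecdysone response, was at log2 0.35 (SE 0.17; limma adjusted p = 0.388). The ecdysone receptor Ecr was at log2 0.28 (SE 0.18), and its partner Usp at log2 -0.0017 (SE 0.13). Br-c, the Broad-Complex transcription factor, was at log2 0.02 (SE 0.48; -0.13 in edgeR and -0.12 in DESeq2), and control 1, at 200 normalized reads, stood against 650 and 665 in controls 2 and 3.

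Among the structural and tanning genes of that list, Cpap3-d and Cpap3-b are peritrophin-like cuticular proteins that bind chitin. Controls 1, 2 and 3 held 51.0, 151 and 49.5 normalized reads of Cpap3-d, and tunicamycin 2, 3 and 4 held 78.5, 187 and 219 (log2 1.01, SE 0.54; limma adjusted p = 0.416), and the groups overlapped through control 2. Cpap3-b was at log2 0.40 (SE 0.27; limma adjusted p = 0.526). Burs, a subunit of the tanning hormone bursicon, was at log2 -0.50 (SE 0.34), with a mean below 1 CPM. Every tunicamycin value of Burs was below every control value, at 14.2 to 23.26 against 23.31 to 34.0 normalized reads. Of the 10 genes this held for 1, against 10.7% of all genes, and E75 alone lay above every control, against 11.0%. For 4 of the 10, E75, E74, Cpap3-d and Cpap3-b, tunicamycin was higher in all 3 tables, against 18.2% of all genes. PPO, the prophenoloxidase of melanization, was at log2 -0.22 (SE 0.25), and Y-f, of the yellow family, at log2 -0.63 (SE 0.70). Y-f turned on control 1, with 792 normalized reads against 180 and 140 in controls 2 and 3, and was at log2 0.14 without it.

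The position of the genes was not used to pick them. Of the 5 genes on each side in gene order, 3 of 10 were measured around CPR27, 8 of 10 around CPF2 and 6 of 10 around Fibroin4. Fibroin1, Fibroin2 and Fibroin3 lie directly beside Fibroin4 in the reference gene table and are not analysed here. Of the 17 measured neighbours, 0 passed in limma and in edgeR (1.13% and 0.939% of all genes), and 1 passed in DESeq2 (5.51%). At an unadjusted p under 0.05 there were 2 in limma, 2 in edgeR and 3 in DESeq2, near the 15.5%, 15.8% and 15.9% of all genes. Their median log2 difference was 0.02, against 0.00142 over all genes, and 4 of 17 had every tunicamycin value above every control value, against 11.0% of all genes. For 6 of 17 tunicamycin was higher in all 3 tables, against 18.2% of all genes.

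All 4 genes whose tunicamycin values lay above every control lie near CPF2. So does the 1 neighbour of 17 with every tunicamycin value below every control value, against 10.7% of all genes. This was LOC726720, 3 places from CPF2, at 187 to 232 normalized reads in controls and 158 to 177 in tunicamycin (log2 -0.30, SE 0.15, limma adjusted p = 0.391). The neighbour called by DESeq2 was LOC412886, 4 places from CPF2, with 334, 325 and 290 normalized reads among controls against 492, 513 and 437 under tunicamycin (log2 0.60, SE 0.13; limma adjusted p = 0.0910; DESeq2 adjusted p = 0.00794). LOC726616, 2 places away on the other side, had a control mean of 2685 ± 229 and a tunicamycin mean of 3368 ± 430 (log2 0.32, SE 0.13; limma adjusted p = 0.301). Near CPR27 and Fibroin4 the measured neighbours lay between log2 -0.56 (LOC100577562) and 0.52 (LOC102654184), below the 1.65 of CPR27 and the 2.04 of Fibroin4. CPR27 and Fibroin4 were picked for higher values, which favours this order, so nothing is read from it.

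**Figure D3:**
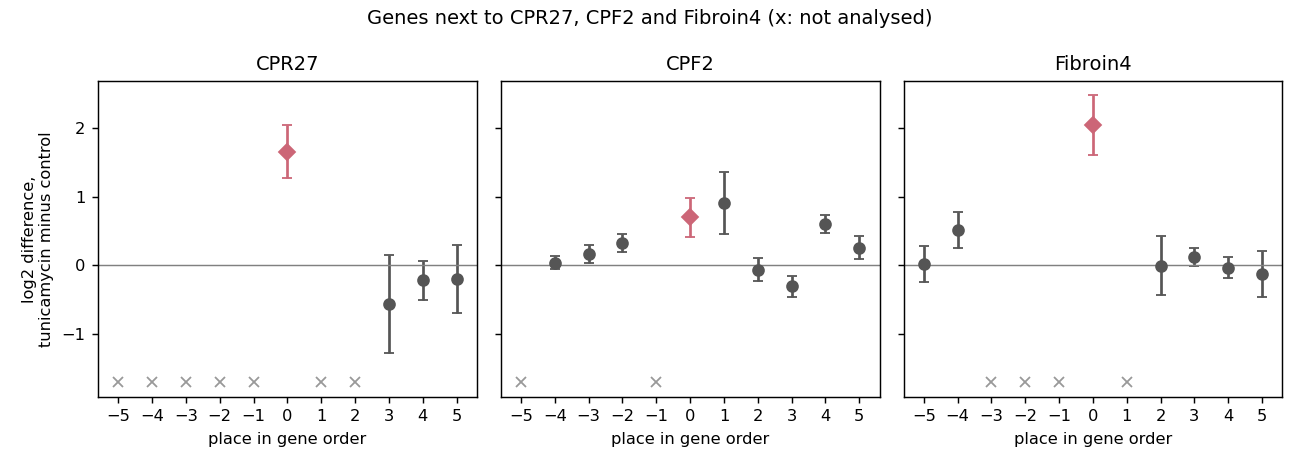
Log2 difference, tunicamycin minus control (y axis, error bars are the SE from limma), of the genes 5 places to each side of CPR27, CPF2 and Fibroin4 in the gene order of the reference table (x axis, in places; 0 is the named gene, the diamond). Grey crosses, placed below the data, mark genes not analysed here; CPF1 at place 1 is the neighbour of CPF2 with the largest difference, 0.91.

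The genes whose pattern over the 6 samples was most like each of the 3 were found by Pearson's r of log2(value + 1), a measure that holds the treatment difference by which the 3 were picked, so it is a description. CPR27 rests on 5 to 24 reads per sample, so counting error limits the order of the genes most like it. CPR27 was most like LOC408447 (r = 0.995), which went from 28.2 to 43.7 normalized reads in controls to 113 to 140 in tunicamycin. Among genes with a name its closest were MsrA, a methionine sulfoxide reductase (r = 0.975), Hsc70-3, the chaperone BiP of the endoplasmic reticulum (r = 0.958), and ecd, the bee counterpart of the fly gene ecdysoneless (r = 0.946). A like pattern did not mean a like size: LOC413467, with r = 0.991, had a log2 difference of 0.16.

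Fibroin4 was most like LOC406096 (r = 0.981) over all genes. Among named genes it was nAChRb2, a nicotinic acetylcholine receptor subunit (r = 0.945), MsrA (r = 0.925) and CPR27 (r = 0.915). The low nAChRb2 was at 3.00 to 7.44 normalized reads in controls and 12.0 to 24.3 in tunicamycin, and was highest in sample 3, as was Fibroin4.

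CPF2 was most like LOC552589 (r = 0.987), and its closest named genes were the homeotic gene Antp (r = 0.95), catalase, Cat (r = 0.919), and the elongation factor EF1a-F2 (r = 0.918). All 3 of these were highest in tunicamycin 4, as was CPF2. With CPF1 its r was 0.880, with CPR27 0.630 and with Fibroin4 0.470. An r of at least 0.95 was reached by 80 genes for CPR27, 15 for CPF2 and 11 for Fibroin4, out of 10012.

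Genes of other tissues were looked at beside these differences. Summed over the 6 measured muscle genes of 9 fixed, the level was 4979 to 8362 normalized reads in controls and 6369 to 8468 in tunicamycin. Over the 5 fat body genes it was 690 to 918 and 448 to 790, over the 3 measured hypopharyngeal gland genes of 9 it was 1529 to 2984 and 1905 to 2748, and over the 3 measured enteroendocrine and neuronal genes of 4 it was 619 to 750 and 709 to 1118. The hemocyte gene PPO, the single match of 3, was at 59.6 to 71.9 and 42.5 to 67.9. The ranges of these sums overlapped between the groups in each list, and 0 of their genes were at 0 in all samples. Of the 21 marker genes other than Fibroin4, 0 had every tunicamycin value above every control value (11.0% of all genes). Every tunicamycin value was below every control value for 2, Hbg3 and Hex70a, against 10.7% of all genes. Hex70a, a hexamerin storage protein, was at 184 to 297 normalized reads in controls and 107 to 147 in tunicamycin (log2 -0.80, SE 0.23; limma adjusted p = 0.176). Tk, the gut hormone tachykinin, was higher in tunicamycin in all 3 tables (log2 0.52, SE 0.21, limma adjusted p = 0.295). So were the muscle genes TpnI (log2 0.22, SE 0.32) and TpnCIIb (log2 0.21, SE 0.21), and 18.2% of all genes. Whether these genes are tied to the differences of CPR27, CPF2 and Fibroin4 was not tested. For cuticle-lined tissues no marker other than the cuticular protein genes themselves was fixed, and the part of such tissue in the differences was not tested.

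**Figure D4:**
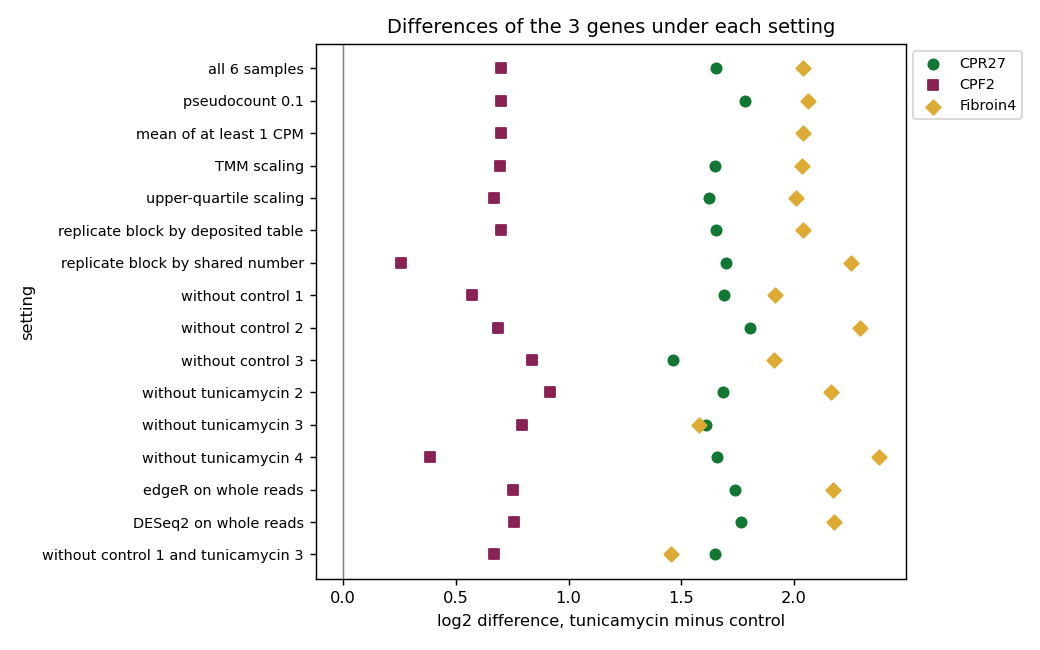
Log2 difference, tunicamycin minus control (x axis), of CPR27 (green circles), CPF2 (purple squares) and Fibroin4 (yellow diamonds) with all samples and under each other setting (y axis). All values lie above 0, which the choice of the genes from these samples nearly fixes; CPF2 comes closest to 0 at 0.26, in the fit of 4 samples blocked by shared replicate number, and CPR27 has no value where a mean of at least 1 CPM was required.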

How the data were processed

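RNA was extracted from honey bee midguts with Trizol, selected by poly(A), made into libraries with a NEBNext Ultra kit and sequenced on an Illumina HiSeq, per the labels. Per the submitters' processing notes, the tools were DESeq2, STAR, Subread and Trimmomatic 0.36; what each did, the build and the strand setting were not given in the sources used here. The values that the authors deposited are a scaled read signal per gene. Every value of a column (100% in all 6) was a whole multiple of the same number within 0.01 of a read, so that whole reads could be recovered. The lowest mean of a gene was 9.89.

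The 3 tables were joined, and limma-trend (limma 3.58.1, R 4.3.3) was fitted to log2(value + 1) of all 10013 genes in 6 samples with the group as sole term, with Benjamini-Hochberg adjustment over all genes. edgeR 4.0.16 (quasi-likelihood) and DESeq2 1.42.0 were run on the recovered reads, and limma was tested on simulated data. Intervals cover counting error only. The reference table of Amel_HAv3.1 matched 9205 identifiers and served for synonyms and gene order. Of its 20 CPR and CPF symbols 9 were measured. Named genes were the 3 genes, the other CPR and CPF genes, the listed related genes, the measured neighbours (those given singly were chosen after their values were seen), and the 3 genes of each kind with the highest r. The members and lists were chosen with earlier results of these data known.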

Additional observations from a re-analysis of the deposited data

How the results depend on the processing

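Over the alternatives run, CPR27, CPF2 and Fibroin4 kept a positive log2 difference, which their choice nearly fixes. With 1 sample left out they ranged from 1.46 to 1.80, 0.38 to 0.92 and 1.58 to 2.38. Without both control 1 and tunicamycin 3, a setting chosen after seeing the data, they were 1.65, 0.67 and 1.46. The replicate block by shared number (4 samples, 1 residual degree of freedom) moved CPF2 to 0.26. A mean of at least 1 CPM removed CPR27, CPR22, CPR6, Burs and the neighbour LOC413112. Among all genes limma called 113; with the replicate block by deposited table it called 44, with that by shared number 4, with DESeq2 518, and with 1 sample left out 20 to 202. The deviations from the group means correlated at 0.05, 0.15 and 0.05 within a table and at -0.12 and -0.10 between samples with the same number. The other pairs of samples lay between -0.04 and 0.06. Deviations from a mean of 3 samples are tied to each other, so these values cannot decide whether samples were paired. The counts of the other CPR and CPF genes, the related genes and the neighbours were 0 in every alternative except DESeq2, with 1 related gene (E75) and 1 neighbour (LOC412886).

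Of 263 values for 19 other named genes, 27 changed sign and 2 gained a call. None of the 19 genes passed in the main limma fit, so no call could be lost. Br-c was at -0.0067 with upper-quartile scaling, -0.63 with the block by shared number, -0.13 in edgeR, -0.12 in DESeq2 and -0.55 to 0.32 with 1 sample left out. CPR12 was at -0.041 with that block. CPR22, at 0.15 in the main limma fit, was at 1.07 in edgeR and 1.09 in DESeq2. It was at -0.041 with a pseudocount of 0.1, -0.24 with that block and -0.91 to 1.6 with 1 sample left out. CPR28 was at 0.0029 with that block, 0.013 in edgeR, 0.020 in DESeq2 and -0.57 to 0.19 with 1 left out. Y-f was at 0.20 with that block and -1.11 to 0.14, Usp at 0.0024 in DESeq2 and -0.090 to 0.091, CPR4 at -0.11 to 0.072 and CPR6 at -0.068 to 0.56 with 1 left out. The cause was not tested. TMM scaling and a pseudocount of 0.1 changed no call of these 19 genes. At 20 to 24 reads in tunicamycin and 5 to 9 in controls, depth limits CPR27.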
